A study of Mus musculus with 6 samples.

Results

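Cells make a set of short non-coding RNAs that are never translated and that serve as the working parts of ribosomes, spliceosomes and RNA-processing enzymes. They were examined here in freshly isolated, resting CD8+ T cells (CD8-TC) that lacked the transcription factor Runx3. The probe sets were chosen by name: every probe set on the array annotated to a 5S ribosomal RNA, a transfer RNA, a Y RNA, a U-number RNA (Rnu symbols), an RNase P or RNase MRP RNA (Rpph1, Rprl and Rmrp symbols), 7SK (Rn7sk) or the telomerase RNA (Terc), and to no protein-coding gene. There were 28 such probe sets among 35399. Several carried the same values in all 6 arrays, as probe sets for near-identical gene copies do, and with identical values counted once 19 remained. No probe set carried a transfer RNA symbol. A further 7 probe sets, 4 with distinct values, were annotated both to the U2 RNA gene Rnu2-10 and to the protein-coding gene Rdm1, and are described beside the others but kept out of their counts. The family was taken up because the falls of n-R5s136 and Rny3 in this comparison were already known. The difference of every member is therefore a description, and an adjusted p given below marks how a probe set stood in the fit over all 35399 and supports nothing about the family.

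The data comprise 6 Affymetrix mouse Gene 1.0 ST arrays, each made from the spleen of 1 male ICR mouse aged 6 weeks, with 3 Runx3+/+ (WT) and 3 Runx3-/- mice. ICR is an outbred stock, and the mice of each group differed in genetic background. The loss of Runx3 was not limited to T cells, since the mice carried the null alleles in the germline. Magnetic beads against CD8 were used to purify cells of both genotypes, and the Runx3-/- cells then went through FACS, which took out dendritic cells that carry CD11c and CD8. Another label has all 6 samples sorted. Where the sort was applied to Runx3-/- cells alone, it cannot be told apart from the genotype. The array is built for whole transcripts of messenger RNA, and the RNA was extracted on silica columns, which recover short RNAs incompletely, so that each signal is that of the RNA that passed through extraction and labelling.

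Some of these RNAs are transcribed by RNA polymerase III, which also makes transfer RNAs, whereas U1, U2, U3, U5, U7, U12 and the telomerase RNA are products of RNA polymerase II. The 5S RNA is a component of the large ribosomal subunit. Y RNAs are bound by the proteins Ro60 and La and take part in RNA quality control. The U RNAs form the cores of the spliceosome (U1, U2, U5 and U6, with U12 acting on the minor class of introns), process the ends of histone messenger RNAs (U7) or guide the first cuts of the ribosomal RNA precursor (U3). RNase P trims the front ends of transfer RNA precursors, RNase MRP acts on the ribosomal RNA precursor, and 7SK holds the elongation factor P-TEFb in an inactive complex. All are made in nearly every cell type and none is a marker of T cells.

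The 5S RNA n-R5s136, the Y RNA Rny3 and the RNase MRP RNA Rmrp were lower in Runx3-/- cells, and no other member was called. Of the 19 distinct probe sets, 18 had a difference (Runx3-/- minus WT, log2 scale) below 0, against 15107 of all 35399 probe sets. The median difference was -0.34 over the 19 and 0.023 over all probe sets of the table, and without n-R5s136 and Rny3 it was -0.30 over the other 17. In 14 of the 19, every Runx3-/- array lay below every WT array, and in 0 every Runx3-/- array lay above, where 9.41% of all probe sets were separated downward and 12.3% upward. The 19 hold 3 probe sets of U1 and 2 of 7SK, which are not separate measurements of these RNAs. All of these were among the 14, so that a count by RNA would be smaller. In the fit over all probe sets, 3 of the 19 were called lower and 0 higher (limma, adjusted p under 0.05). The corresponding shares of the whole table were 0.932% lower and 0.692% higher. The 3 were n-R5s136, Rny3 and Rmrp, the first 2 of which were known before. At the change of 1.5-fold and the unadjusted p under 0.05 named in the methods, without their further condition of signal above background, for which no detection calls were at hand, 6 of the 19 were lower and 0 higher, with 2.12% and 2.47% of all probe sets. These 6 were n-R5s136, Rny3, Rmrp, Rnu3a, the U3B probe set and Rprl1. Array medians over all probe sets lay between 3.45 and 3.53. Of the 19, 16 had a mean signal at or above the array median. Among these, 3 were called lower and 0 higher, where 1.71% and 1.32% of all probe sets at that level were called. The other 3 (Rnu7, Rnu5g and Terc) read below it, where signal is close to background and a change may not be seen. Of these, 0 were called, as against 0.142% lower and 0.0569% higher among all such probe sets.

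**Figure D1:**
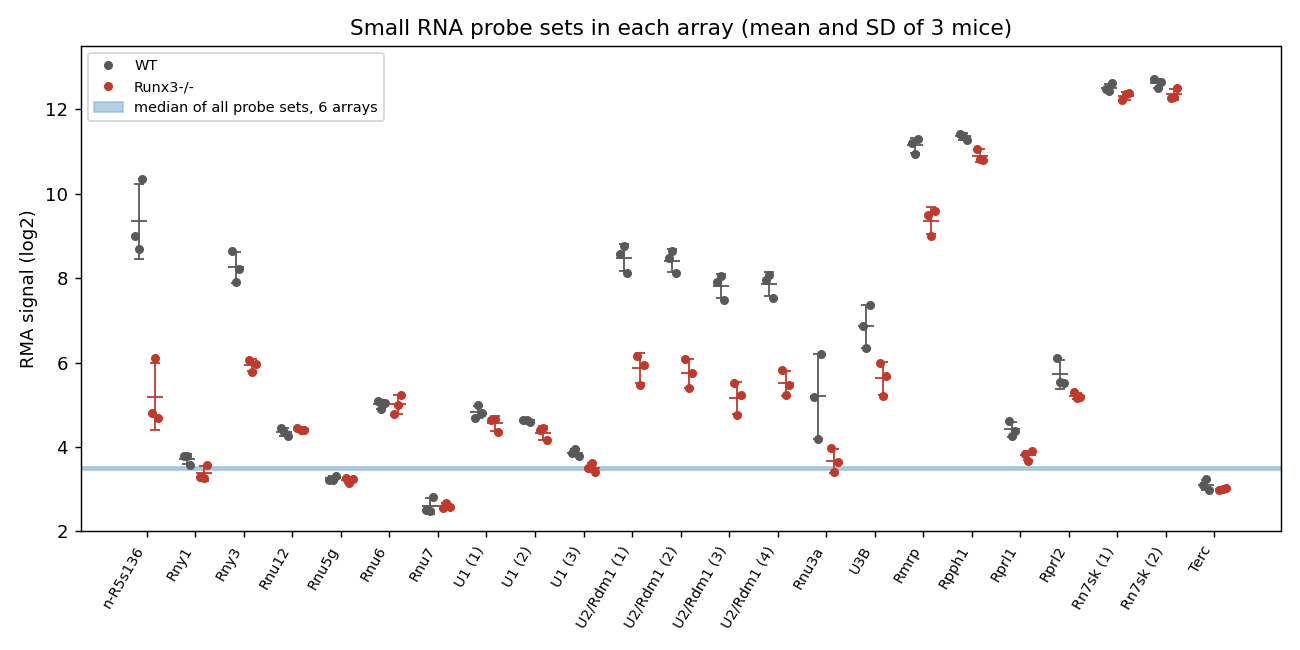
Vertical axis, RMA signal (log2) of each small RNA probe set (horizontal axis, identical values shown once, numbers in brackets telling probe sets of one RNA apart) in the 3 WT (grey) and 3 Runx3-/- (red) arrays, with bars for the mean and SD of n = 3 mice and a blue band for the array medians. The genotypes lie far apart for n-R5s136, Rny3, U2/Rdm1 and Rmrp, and overlap for Rnu12, Rnu5g, Rnu6, Rnu7 and Terc.

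The widest difference was that of the 5S RNA. The 5S probe set n-R5s136 (10582580) read 8.99, 8.70 and 10.36 in WT replicates 1, 2 and 3, and 4.79, 6.10 and 4.68 in Runx3-/- replicates 1, 2 and 3. The groups did not overlap, although each held 1 array more than 1 log2 unit above the other 2, WT replicate 3 and Runx3-/- replicate 2. The difference was -4.16 ± 0.55 (SE, n = 3 per group, 95% interval from -5.51 to -2.81), a 17.9-fold lower signal (limma adjusted p = 0.0279). The difference stayed between -4.61 and -3.65 with any 1 array left out, while the call was lost when WT replicate 1 or 2 was dropped (limma adjusted p = 0.0927 and 0.0595, respectively) and when Runx3-/- replicate 1 or 3 was dropped (0.0750 and 0.108).

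The RefSeq gene table (GRCm38.p6) lists 51 ribosomal RNA genes with n-R5s symbols, 40 of them on chromosome 8, where n-R5s136 lies as well. Copies of 5S RNA are near-identical in sequence, so that the signal of this probe set cannot be assigned to 1 gene copy. Between the named probe sets on either side of it in array number there were 10 probe sets with no gene in the annotation used here, 4 of them with distinct values, and what they read is not known. They were looked at after their values were seen. Of the 10, 3 were called lower, and the other 7 differed by -0.96 to -0.39 without a call. With 1 array left out, 10582562 was called in 3 of 6 fits and 10582582 in 2 of 6. Probe set 10582562 read 8.23, 7.72 and 9.25 in WT arrays and 4.52, 4.05 and 3.36 in Runx3-/- arrays, a difference of -4.43 ± 0.46 (SE). Its Runx3-/- replicate 3 lay below the array median, so that the size of this difference is uncertain. Probe set 10582582, whose values 1 other shared, read 6.67, 5.88 and 8.20 in WT arrays and 2.14, 2.98 and 2.45 in Runx3-/- arrays, the latter below the array median and close to background, so that the size of its difference is not given. In these, as in n-R5s136, WT replicate 3 was the highest of the WT arrays and WT replicate 2 the lowest.

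The Y RNAs Rny3 and Rny1 are encoded next to each other on chromosome 6, with only a ribosomal protein pseudogene listed between them in the RefSeq table. Rny3 (10537909) read 8.64, 7.91 and 8.22 in WT arrays and 6.06, 5.78 and 5.97 in Runx3-/- arrays. The lowest WT array stood well over the highest Runx3-/- array, and the 3 Runx3-/- arrays lay close together. The difference was -2.32 ± 0.19 (SE, n = 3 per group), a 4.99-fold lower signal (limma adjusted p = 0.00637). Rny1 (10544523) read 3.78, 3.78 and 3.58 in WT arrays and 3.29, 3.26 and 3.57 in Runx3-/- arrays, a difference of -0.34 ± 0.11 that did not pass in limma (adjusted p = 0.219). Its groups were separated by less than 0.01 log2 units and its signal lay near the array median in both genotypes, where a change would be compressed. Whether the differences of the 2 Y RNAs differ was not tested.

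Among the probe sets of spliceosomal RNAs, those shared by U2 and Rdm1 were called lower and no other was. The 4 distinct U2/Rdm1 probe sets read between 7.49 and 8.75 in WT and between 4.75 and 6.17 in Runx3-/- arrays. The one that is repeated on the array (10381460) read 8.48, 8.65 and 8.12 in WT arrays and 6.08, 5.39 and 5.75 in Runx3-/- arrays, a difference of -2.67 ± 0.21 (SE, n = 3 per group), or 6.38-fold (limma adjusted p = 0.00569). The differences of the other 3 were -2.65, -2.62 and -2.35. Probe sets for gene copies that share sequence are not separate measurements, so that these 4 count as 1 observation. The probe set annotated to Rdm1 alone (10381462), a gene of a DNA-binding protein linked to recombination, read 4.50, 4.56 and 4.58 in WT arrays and 4.40, 4.19 and 4.52 in Runx3-/- arrays, a difference of -0.18 ± 0.09 (limma adjusted p = 0.440). No probe set was annotated to U2 alone, so that only the Rdm1 annotation could be read separately. Which transcript gives the signal of the shared probe sets was not tested. With U2/Rdm1 counted as 1 beside the members, 4 of 20 were called lower and 0 higher, where the shares of the whole table were 0.932% and 0.692%. The 20 still count U1 as 3 and 7SK as 2.

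The 9 U1 probe sets, each annotated to Rnu1b1, Rnu1b2 and Rnu1b6 together, held 3 distinct sets of values. The U1 RNA pairs with the 5′ splice site. In probe set 10494413 the U1 signal was 3.86, 3.95 and 3.79 in WT arrays and 3.50, 3.62 and 3.40 in Runx3-/- arrays, a difference of -0.36 ± 0.08 (SE, limma adjusted p = 0.108). That probe set lay near the array median in Runx3-/- arrays, where a change would be compressed. The other 2 gave -0.30 ± 0.09 and -0.27 ± 0.12, the latter -0.17 without Runx3-/- replicate 3. All 3 were separated between genotypes, by a narrow gap, and none was called. The remaining spliceosomal RNAs and U7 overlapped between genotypes. U6 (Rnu6), which lies at the catalytic centre of the spliceosome, read 5.09, 4.89 and 5.05 in WT arrays and 4.78, 5.01 and 5.23 in Runx3-/- arrays, a difference of -0.0047 ± 0.13, with a 95% interval from -0.31 to 0.30. U12 (Rnu12) gave 0.068 ± 0.070, with an interval from -0.10 to 0.24, and was the only member with a difference above 0. U5 (Rnu5g) and U7 (Rnu7) gave -0.040 ± 0.065 and -0.0012 ± 0.11, both from signals below the array median. The sign of the Rnu6 and Rnu7 differences depended on single arrays.

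The U3 RNAs gave wide differences with a wide spread among mice, and neither of their probe sets was called. The 4 U3B probe sets (10380059 and 3 copies with identical values, each annotated to Rnu3b1, Rnu3b2, Rnu3b3 and Rnu3b4) read 6.86, 6.35 and 7.36 in WT arrays and 5.99, 5.20 and 5.67 in Runx3-/- arrays. The groups did not overlap, and the difference was -1.23 ± 0.30 (SE, n = 3 per group, limma adjusted p = 0.126). Rnu3a (10362674), a separate gene on chromosome 10, read 5.19, 4.20 and 6.21 in WT arrays and 3.98, 3.41 and 3.63 in Runx3-/- arrays. Its difference was -1.53 ± 0.49 (limma adjusted p = 0.214), and the WT arrays alone spanned more than the distance between the group means. Runx3-/- replicate 2 of Rnu3a lay below the array median, where a change would be compressed. In both U3 probe sets WT replicate 3 was highest and Runx3-/- replicate 2 lowest. Without WT replicate 3 the differences were -1.02 for Rnu3a and -0.98 for U3B.

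RNase MRP and RNase P share most of their protein subunits, and of their RNAs only Rmrp was called. Rmrp (10512487) read 11.21, 10.94 and 11.29 in WT arrays and 9.50, 8.99 and 9.60 in Runx3-/- arrays. The groups lay more than 1 log2 unit apart, at a difference of -1.78 ± 0.18 (SE, n = 3 per group), or 3.44-fold (limma adjusted p = 0.0116). Without WT replicate 1 the difference was -1.75 and the call was lost (limma adjusted p = 0.0620). Rpph1 (10419469), the RNase P RNA, read 11.43, 11.37 and 11.27 in WT arrays and 11.07, 10.83 and 10.79 in Runx3-/- arrays, a difference of -0.46 ± 0.10, or 1.37-fold (limma adjusted p = 0.0854). The 95% intervals were -2.23 to -1.34 for Rmrp and -0.69 to -0.23 for Rpph1. The difference between these 2 changes was not tested. The RNase P-like genes Rprl1 and Rprl2 gave -0.62 ± 0.11 (limma adjusted p = 0.0616) and -0.51 ± 0.17 (limma adjusted p = 0.233). Rprl1 (10545192) read 4.60, 4.27 and 4.37 in WT arrays and 3.83, 3.67 and 3.89 in Runx3-/- arrays, and Rprl2 (10491058) read 6.11, 5.53 and 5.51 in WT arrays and 5.29, 5.15 and 5.17 in Runx3-/- arrays. Neither pair of groups overlapped. Without WT replicate 1 the Rprl2 difference was -0.31.

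The 2 probe sets of 7SK, which had the strongest signal of all members, were not called. Rn7sk read 12.47, 12.44 and 12.61 in WT arrays and 12.22, 12.36 and 12.37 in Runx3-/- arrays on probe set 10426437, and 12.71, 12.50 and 12.64 against 12.27, 12.29 and 12.50 on probe set 10595140. No array overlapped, but on the second probe set the lowest WT array and the highest Runx3-/- array were nearly equal. The differences were -0.19 ± 0.08 and -0.26 ± 0.09 (SE), with limma adjusted p of 0.326 and 0.253, and after quantile normalization they were -0.090 and -0.15. The signals stood among the highest on the array, where a change can be compressed. The telomerase RNA, the template that telomerase copies, read 3.09, 3.23 and 2.99 in WT arrays and 2.98, 3.00 and 3.02 in Runx3-/- arrays on the Terc probe set (10500345), below the array median throughout. The difference was -0.11 ± 0.08 (limma adjusted p = 0.595), and ran from -0.16 to -0.041 with 1 array left out.

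**Figure D2:**
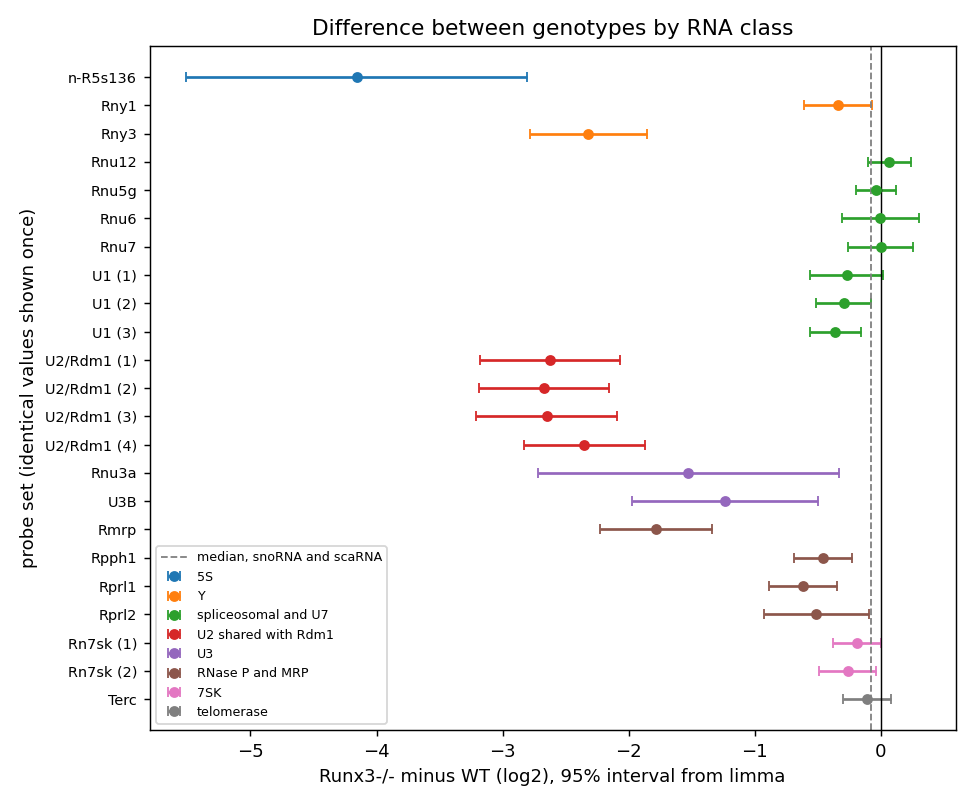
Difference between Runx3-/- and WT arrays on the log2 scale (horizontal axis) for each distinct small RNA probe set (vertical axis), coloured by RNA class, with 95% intervals from limma and n = 3 arrays per group. The dashed line marks the median of snoRNA and scaRNA probe sets at -0.080. Intervals for n-R5s136, Rny3, U2/Rdm1 and Rmrp lie wholly below -1, whereas those of Rnu12, Rnu5g, Rnu6, Rnu7, Terc, 1 of the U1 and 1 of the 7SK probe sets include 0.

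Other kinds of short non-coding RNA on the array were set beside these. Of 60 probe sets for small nucleolar and Cajal body RNAs (snoRNA and scaRNA), which guide chemical modification of ribosomal and spliceosomal RNAs, 5 were called lower and 0 higher, and the median difference was -0.080. Their differences ranged from -2.10 to 1.21. Repeats of the same values, such as those of Scarna17, were counted apart among these 60, unlike among the distinct members. Of the 60, 17 (28.3%) were separated downward and 12 upward, where the shares of the whole table were 9.41% and 12.3%. At a mean signal over all 6 arrays of at least 6, a limit chosen after the values were seen, 23 of 28 snoRNA and scaRNA probe sets had a difference below 0, with a median of -0.60. At that signal 7 of 7 distinct members were below 0, with a median of -1.23, as were 3800 of 7392 probe sets of the whole table, with a median of -0.0074. The members n-R5s136, Rny3 and U3B had Runx3-/- means of 5.19, 5.94 and 5.62, below the limit, and passed it only through their WT arrays. Some snoRNAs, such as Snord22 with a WT mean of 7.36 and a difference of -1.93, passed it in the same way. The counts and medians at this limit are therefore a description only. Of 296 microRNA precursors, most of which read below the array median, 0 were called by limma in either direction, 1 was lower and 2 higher at the fold and unadjusted p of the methods, and the median was 0.045. How the members differ from these RNAs was not tested.

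Over the 17 RNAs, U2/Rdm1 included, Spearman's rho between the RNA length in the RefSeq table and the difference was -0.15, and over the 60 snoRNA and scaRNA probe sets it was -0.25. The 17 include Rnu7, Rnu5g and Terc, which read below the array median. Among RNAs with a WT mean of at least 6, rho was 0.86 over 7 RNAs of 101 to 332 nt. It was -0.32 over 29 snoRNA and scaRNA probe sets. That limit was set on the group in which the called members were higher, so that these values are a description only. The points share the same 6 arrays. The part of the recovery of short RNAs in the lower signals was not tested.

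The genes of the proteins that make, bind or process these RNAs were examined as lists. In RNA polymerase III and its factors, 0 of 28 genes were called in either direction by limma, with 4 at an unadjusted p under 0.05, and the median difference was -0.051. The lowest p values belonged to Snapc4 (0.38 ± 0.09, SE), a subunit of the complex that starts U RNA genes, Polr3b (-0.26), a catalytic subunit of the polymerase, Gtf3c6 (-0.18) and Polr3gl (0.24). Gtf3a, which encodes the factor that starts 5S transcription and also binds the 5S RNA, gave -0.15 ± 0.14. Maf1, the repressor of the polymerase, gave 0.16 ± 0.09. Of 11 genes for proteins that bind 5S or Y RNAs, 0 were called, with 1 at an unadjusted p under 0.05 and a median of 0.014, and Rrs1 (-0.35 ± 0.14), Puf60 (0.15), Ptbp1 (0.13) and Ncl (-0.089) had the lowest p. The 5S partner Rpl5 gave -0.10 ± 0.07, and the Y RNA binders Ro60 and Ssb, which encodes La, gave 0.014 ± 0.19 and 0.090 ± 0.076. At the shares called over the whole table, 0.932% lower and 0.692% higher, lists of this size would hold few calls or none, and the counts of 0 are not a result about these partners. The share of the whole table at an unadjusted p under 0.05 is not given here. Counts at that p, in these lists and in those that follow, are therefore a description and not a result about the lists.

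Of 42 genes for Sm, Lsm and other proteins of the spliceosomal particles, 0 were called by limma, 12 had an unadjusted p under 0.05, and the median was -0.070. Snrnp25 (-0.37 ± 0.08, SE), of the minor spliceosome, led, followed by Lsm6 (-0.31), which belongs to the ring on U6, the U2 protein gene Snrpa1 (-0.22) and Zmat5 (-0.24). Of 26 genes for proteins of RNase P, RNase MRP, the 7SK particle and telomerase, 0 were called, 5 had an unadjusted p under 0.05, and the median was -0.10. Mepce, which caps and stabilises 7SK, gave 0.41 ± 0.08 (limma adjusted p = 0.0782), Nhp2, a protein of telomerase and of one class of snoRNA particles, gave -0.44 ± 0.09 (0.0790), Pop7, shared by RNase P and MRP, gave -0.43 ± 0.12 and Rpp14 gave -0.35. Of 26 genes of the Integrator complex, which ends U RNA transcripts, and of the RNA exosome and its cofactors, 0 were called and 4 had an unadjusted p under 0.05, with a median of 0.017. The lowest p belonged to Tent4b (-0.25), Exosc7 (-0.25), Trnt1 (0.23) and Exosc8 (0.22). The widest difference in any partner list was that of Snrpe, a gene of the Sm ring, at 0.58 ± 0.26 (limma adjusted p = 0.356), short of those of n-R5s136, Rny3, U2/Rdm1 and Rmrp. When only 1 probe set per gene above the array median was fitted, Snrnp25, Nhp2 and Mepce were called, 2 lower and 1 higher. Of the 9924 probe sets in that fit, 595 were called lower and 559 higher, so that these calls are a description only.

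Other cell types moved with the same groups. Cells labelled CD8-TC carried T cell genes in both genotypes. Of 12 T cell identity genes 0 were called by limma, 5 had an unadjusted p under 0.05, and the median was 0.20, and the brightest, Cd3g, Cd8a and Cd8b1, read 11.20, 11.10 and 10.70 in WT arrays and 11.38, 11.06 and 10.56 in Runx3-/- arrays. Of 17 B cell markers 15 were called lower, with a median of -2.27 and a summed linear signal of 1518 to 2344 in WT and 361 to 429 in Runx3-/- arrays. The brightest were Cd79a (8.37 in WT and 5.17 in Runx3-/-), Cd79b (8.26 and 5.97) and Ms4a1 (7.93 and 5.07). Of 19 macrophage markers 16 were called lower, with a median of -2.36 and a sum of 3447 to 3569 in WT and 656 to 860 in Runx3-/- arrays, led in brightness by Slc40a1 (9.32 and 6.30), Ctsb (9.17 and 8.15) and Hmox1 (8.92 and 5.21). Of 9 erythroid markers 3 were called lower, with sums of 513 to 749 and 272 to 296. Their brightest were Tfrc (7.34 and 7.32), Alas2 (6.91 and 3.53) and Car2 (6.76 and 5.06). Of 12 dendritic cell markers 0 were called, with 3 at an unadjusted p under 0.05 and sums of 1363 to 1734 and 863 to 1313, and Ccr9 read 8.24 and 8.63, Wdfy4 8.21 and 6.70, and Fscn1 7.89 and 6.55. In bulk samples, fewer cells of a type and less RNA per cell cannot be told apart. The part of other cells in the lower small RNA signals was not tested. Runx3 itself (10509030) read 7.09, 7.30 and 6.99 in WT arrays and 7.06, 7.17 and 7.64 in Runx3-/- arrays, and the part of the transcript that this probe set reads is unknown here, so that it checks no label.

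Within a genotype, the small RNAs did not share one order of arrays. Of the 16 distinct members whose mean signal was at or above the array median, WT replicate 1 was the highest WT array in 9, replicate 3 in 5 and replicate 2 in 2. Runx3-/- replicate 2 was the lowest Runx3-/- array in 7, replicate 3 in 6 and replicate 1 in 3. These counts hold 3 probe sets of U1 and 2 of 7SK. Relative to the WT mean, Runx3-/- replicate 2 stood at -3.25 for n-R5s136, the mildest of its group, and at -2.48 for Rny3, -2.16 for Rmrp, -2.93 for U2/Rdm1 and -1.65 for U3B, the most lowered of its group in each. On the same log2 scale the summed marker signal of that array was -2.28 for B cells and -2.10 for macrophages, between those of the other 2 Runx3-/- arrays. The 3 Runx3-/- arrays lay close together for Rny3, from -2.48 to -2.20. Rpph1 was lowest in Runx3-/- replicate 3, at -0.56, and Rn7sk in replicate 1, at -0.32. Dendritic cell markers stood at -0.076, -0.14 and 0.21 in WT replicates 1, 2 and 3 and at -0.61, -0.19 and -0.79 in Runx3-/- replicates 1, 2 and 3, and within each genotype n-R5s136 had the same order of arrays. That match was picked out after the values were seen, among several RNAs and marker lists. Ccr9, the brightest gene of the dendritic cell list, read higher in Runx3-/- arrays, and which cells gave its signal was not tested. Erythroid markers were also mildest in Runx3-/- replicate 2, at -1.05, against -1.10 and -1.18, a narrow gap. Their highest WT array was replicate 1, at 0.29, whereas that of n-R5s136 was replicate 3. The part of dendritic or erythroid cells in the n-R5s136 signal was not tested.

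**Figure D3:**
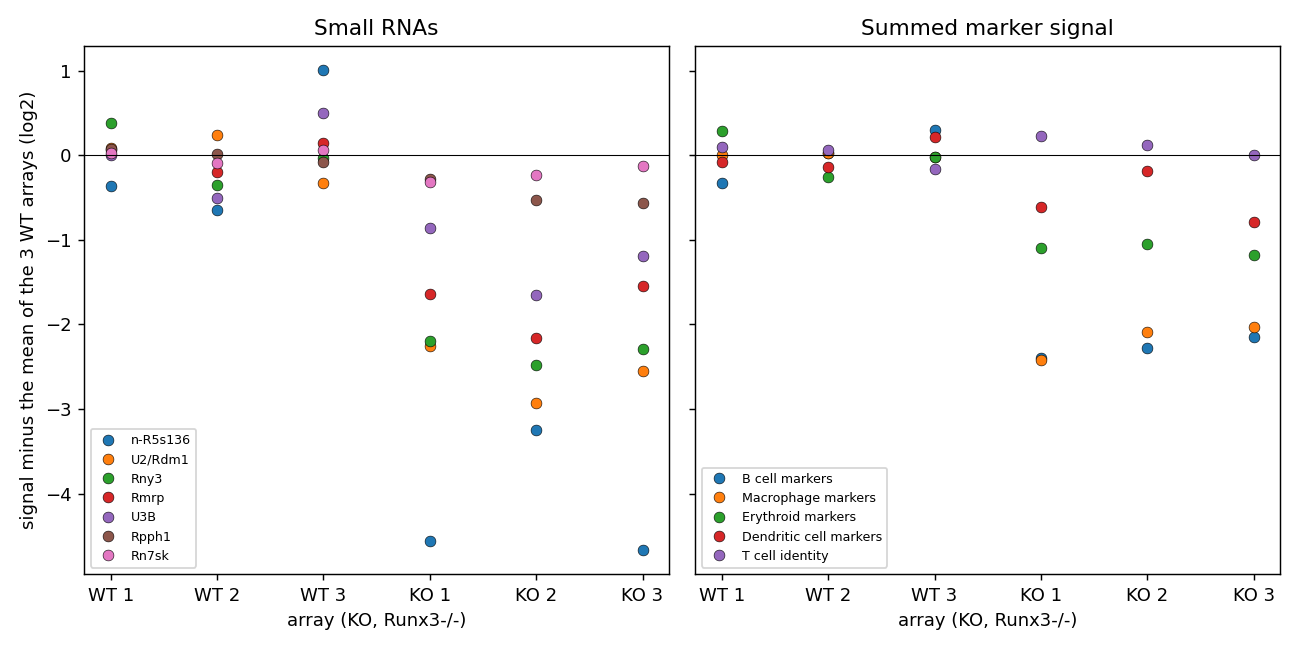
Signal minus the mean of the 3 WT arrays on the log2 scale (vertical axis) in each array (horizontal axis), for 7 small RNAs (left, averaged over distinct probe sets) and for the summed linear signal of marker lists (right). Runx3-/- replicate 2 is the lowest Runx3-/- array for Rny3, Rmrp, U2/Rdm1 and U3B but the highest for n-R5s136 at -3.25, and B cell and macrophage markers lie near -2 in all 3 Runx3-/- arrays.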

How the data were processed

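The deposited values were log2 signals per probe set. Per the methods, the authors normalized the CEL files in Partek Genomics Suite by RMA with a GC correction. RMA sets the probe intensities of all arrays to 1 distribution before they are combined into probe set values. A change shared by most RNAs can therefore not be seen. Software versions were not stated, and no build was named. GEO's platform annotation gave exactly 1 symbol to 21789 of the 35399 probe sets, several to 1621 and none to 11989. RNA classes, lengths and neighbours came from a RefSeq gene table (GRCm38.p6). All 35399 probe sets, without a filter on signal, were fitted with limma 3.58.1 (R 4.3.3; lmFit, eBayes, two-sided, no covariates) and p-values adjusted by Benjamini-Hochberg. The calling was tested on simulated data with 200 changed probe sets. SD is over 3 mice, SE from limma. With 3 arrays per group, their number limits the precision. Genes were read by their brightest single-symbol probe set. The genes named were Runx3, every Y, RNase P, RNase MRP, Rprl, 7SK and telomerase RNA, in other RNA classes the lowest and highest 4 differences and the 3 brightest, up to 4 partners with the lowest p in each list (further partners were named after their values were seen), and the 3 brightest markers of each list. Members and lists were chosen with earlier results of these data known. Alternatives covered normalization, filters, variance models, the replicate block, the call rule, the member set and leaving out each array. Sequences of these RNAs are not shown here.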

Additional observations from a re-analysis of the deposited data

How the results depend on the processing

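The number of small RNA probe sets called lower was 3 of 28. It was 5 of the 11 that remained with 1 filtered probe set per gene, where Rpph1 and Rprl1 were added. That fit tested only 9924 probe sets and called 595 lower and 559 higher, larger shares than in the main fit. The number was 0 without moderation of variances, 9 at the fold and unadjusted p of the methods and 10 with the U2/Rdm1 probe sets. It lay between 1 and 3 with 1 array left out (1 without WT replicate 1). None was called higher under any of these. Probe sets with identical values are counted apart in the 9 and the 10. With identical values counted once, the 9 become 6 and the 10 become 7, and the U2/Rdm1 probe sets among the latter count as 1 observation. Over all probe sets, calls were 330 lower and 245 higher. They were 595 and 559 with 1 filtered probe set per gene, 11 and 5 without moderation, 749 and 873 at the methods' thresholds, and 144 to 226 and 54 to 158 with 1 array left out. Partner genes called were 0, except 2 lower and 1 higher with 1 filtered probe set per gene. Marker genes called lower were 34, 0 without moderation and 22 to 28 with 1 array left out (22 without WT replicate 2 or Runx3-/- replicate 2), and 0 were higher, except 1 with 1 filtered probe set per gene and 1 at the methods' thresholds.

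The median difference of the small RNAs was -0.34 and -0.51 with 1 filtered probe set per gene. That of 7SK was -0.23 and -0.12 after quantile normalization. That of the spliceosomal RNAs and U7 was -0.040, -0.27 under either filter on signal and 0.032 over the 2 RNAs kept with 1 filtered probe set per gene, and ran from -0.12 to -0.013 with 1 array left out. With 1 array left out, Rnu6 ran from -0.12 to 0.11, turning positive without WT replicate 1, WT replicate 3 or Runx3-/- replicate 1. Rnu7 ran from -0.059 to 0.11, turning positive without WT replicate 3, Runx3-/- replicate 1 or Runx3-/- replicate 3, and was 0.0088 with array weights. The cause was not tested.

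Deviations of same-numbered arrays correlated at 0.24, 0.095 and 0.0041, and those of differently numbered arrays at -0.19 to 0.078. Whether the replicate numbers pair the arrays is not known from these values. With the replicate number as a block, 143 probe sets were lower and 102 higher, 20 markers were lower, and n-R5s136 did not pass (limma adjusted p = 0.0841).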
